A study of Mus musculus with 12 samples.

Results

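The interferon response genes described here are 39 genes that cells switch on when they receive interferon, chosen as a named list of gene symbols and matched to Ensembl gene identifiers of the GRCm38 mouse genome. The list was chosen with earlier results of these data known. The count table held 55573 genes. All 39 members were found in it, and all 39 were among the 16761 genes with enough counts to be tested. The cells were astrocyte-enriched cortical cultures grown from C57BL6/J mouse pups of postnatal day 0 to 2 in medium with horse serum, and other glia had been shaken off on day 7 in culture, before replating. They carried a lentivirus for 5 days. The control virus was pCIG3 (pCMV-IRES-GFP), named for the CMV promoter, which is not restricted to astrocytes. The other virus carried ACREB, a dominant-negative protein that binds the transcription factor CREB and keeps it off DNA. Each virus was combined with PBS or with 0.5 µM vasoactive intestinal peptide (VIP), a peptide that raises cyclic AMP and thereby activates CREB, applied for 30 min and followed by 90 min of recovery. The 4 groups were control virus with PBS, control virus with VIP, ACREB with PBS and ACREB with VIP. There were 3 libraries in each, numbered 1 to 3, and there was no group without a virus. The labels do not say that the numbers are separate cultures, so the p-values rest on the spread among these libraries, and that spread may be technical.

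Type I interferons bind a receptor that activates the kinases JAK1 and TYK2, and these phosphorylate transcription factors that include STAT2. With IRF9 they form a complex, ISGF3, that binds the interferon-stimulated response element (ISRE) in the promoters of a large set of genes, many of which encode proteins that block viral replication. Astrocytes carry the receptor and keep part of this programme on without infection. Sensors of viral RNA and DNA start the response, and factors such as USP18 shut it down.

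The ISRE is shown for 8 of the genes, because it is the DNA sequence the pathway acts through. Promoter windows of 300 bases, from 250 before to 50 after the start, came from RefSeq (GRCm38.p6), and 29 of the 39 genes were matched. Mx1, Mx2, Oas2, Dhx58, Zbp1, Parp9, Parp14, Usp18, Ifi27 and Rtp4 were not matched. Each line below reads 5′ to 3′ on the strand of the gene, with the ISRE match in capitals. The ISRE was searched as GAAA, NN and GAAA without a gap, on both strands, so a match on the other strand reads TTTC, NN and TTTC.
Stat2, chr10:128270256-128270305, + strand: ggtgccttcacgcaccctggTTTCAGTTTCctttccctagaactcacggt
Ifit1, chr19:34640765-34640814, + strand: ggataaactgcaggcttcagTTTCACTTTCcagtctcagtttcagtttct
Ifit3, chr19:34583387-34583436, + strand: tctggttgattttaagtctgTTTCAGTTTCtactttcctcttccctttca
Isg15, chr4:156200861-156200910, - strand: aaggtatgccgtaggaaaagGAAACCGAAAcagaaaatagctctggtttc
Oas1a, chr5:120907526-120907559, - strand: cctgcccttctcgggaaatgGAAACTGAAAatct
Rsad2, chr12:26456543-26456592, - strand: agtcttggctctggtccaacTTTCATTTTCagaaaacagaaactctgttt
Gbp3, chr3:142559979-142560028, + strand: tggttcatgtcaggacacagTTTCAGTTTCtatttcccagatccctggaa
Cxcl10, chr5:92349073-92349122, - strand: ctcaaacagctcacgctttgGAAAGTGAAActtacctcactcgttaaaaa
The match lies 5 to 14 bases before the start in Oas1a, 63 to 72 in Isg15, 95 to 104 in Ifit1 and 204 to 213 in Cxcl10. Of the 29 genes, 15 (51.7%) held the ISRE letters on either strand, against 3.99% of the 27025 genes with a window. Some genes, such as Gbp3, had several windows, and a match in any of them was counted. The gamma-activated site, searched as TTC, NNN and GAA without a gap, a motif of the interferon gamma response, was in 8 of 29 (27.6%, against 9.55%). The cyclic AMP response element, the TGACG core followed by TCA, which binds CREB, was in 0 of 29 (2.03% of all genes). The TGACG core alone, which the longer motif contains, was in 5 (17.2%, against 23.0%). The windows of Irf7, Oasl1 and Oasl2 held no ISRE match. A match is a run of letters and does not show that a factor binds there, and no match says only that these letters are not in this window.

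Total counts were 16571398 to 20529238 per library. Control PBS library 2 stood apart on the first principal component, at 81.2, where ACREB PBS library 2 lay at 34.6 and the other 10 libraries at 7.02 or below. GC content and length of the transcripts accounted for 52.4% and 28.2% of the variance of these libraries' departure from the mean library, and for 0.912% to 27.3% in the other 10, the highest being ACREB VIP library 1. Values below are therefore also given within pairs of libraries of the same number. Creb1, the gene ACREB derives from, measured 21.2 to 67.2 CPM with control virus and 59.8 to 117.4 CPM with ACREB. Counts per gene do not separate the transgene from Creb1, so the level of ACREB itself was not measured. The astrocyte markers Gfap, Aqp4, Slc1a3, Slc1a2, Aldh1l1, S100b, Gja1, Sox9, Aldoc and Glul were all expressed, at a summed 6574 to 7676 CPM per library. Microglia were present as well, with 15 of 15 microglia and macrophage markers tested, at a summed 1552 to 4018 CPM per library.

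Transcripts of the 39 genes were counted in every library. No group without a virus or with added interferon was included, so whether the programme was induced was not tested. CPM is a gene's count relative to the library total, scaled here by TMM, edgeR's correction for library composition. Summed over the 39 genes, the level was 1566 ± 135 CPM with control virus and PBS, 1732 ± 62.4 with control virus and VIP, 1394 ± 132 with ACREB and PBS and 1456 ± 93.3 with ACREB and VIP (SD, n = 3). Per kilobase of exon and averaged over the 12 libraries, Bst2, tetherin, which holds budding virus at the cell surface, had the highest level, at 109.2 CPM per kilobase. Ifi27, a small membrane protein gene, followed at 90.5, then Ifit3, of the RNA-binding IFIT complex, at 58.1, and Lgals3bp, a secreted galectin ligand, at 36.5. The lowest levels per kilobase were 0.271 for Oas2, 0.456 for Zbp1 and 0.472 for Oasl1. The 39 genes had 269 to 38483 counts each over the 12 libraries, so the precision differed widely between them.

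Interferon genes themselves were near or at 0. Ifnb1, the gene for interferon beta, had 1 count over the 12 libraries, and Ifna2, Ifna4, Ifng, Ifnl2 and Ifnl3 had 0. For counted reads, 0 allows up to 0.0135 CPM over all libraries (3 counts). Trex1 and Ifi47, which overlap other genes on their own strand, also had 0 counts. Whether a 0 of the interferon genes reflects the counting, for instance of reads shared by similar genes, was not tested. The receptor genes were expressed, with Ifnar1 at 95.8 ± 6.6 CPM, Ifnar2 at 24.5 ± 3.89 CPM and Ifngr1 at 76.3 ± 6.92 CPM in control PBS libraries (SD, n = 3). The ligand genes are not part of the 39.

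The comparison of ACREB with control virus asked how the genes differ between cultures given these viruses, first without VIP. The arms carried different viruses, so an effect of ACREB cannot be told apart from one of the virus preparation or dose. Because the list was chosen with earlier results of these data known, its counts beside all genes are descriptions and not tests of the list. With PBS, 37 of the 39 genes had a log2 fold change below 0, where 48.8% of all genes tested did. The median was -0.25, and it was 0.01 over all genes. By the quasi-likelihood test of edgeR, adjusted over all genes after Benjamini and Hochberg, 0 of the 39 passed at an adjusted p of 0.05 in either direction, and the smallest adjusted p was 0.27. The background was small, at 0.0298% of all genes called lower and 0.00597% called higher. At an unadjusted p under 0.05, 7 members were lower and 0 higher, where 2.72% of all genes were lower and 2.58% higher.

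With VIP, again 37 of 39 lay below 0, against 49.6% of all genes, with a median of -0.32 against 0.00. Here too 0 of 39 passed edgeR's test (smallest adjusted p = 0.24), beside 0.0358% of all genes called lower and 0.0179% called higher. At an unadjusted p under 0.05, 11 were lower and 0 higher, against 2.82% of all genes lower and 2.88% higher. In total 36 of 39 lay below 0 in both treatments, where 29% of all genes did. The 3 exceptions were Rnf213, a large ubiquitin ligase, above 0 in both, Ifit2, at 0.17 with PBS, and Irf1, at 0.03 with VIP.

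Same-numbered libraries deviated together across genes, and the labels' numbers were taken to pair them. On log2(CPM + 2), which understates differences of low genes, the median of the 39 genes in ACREB minus control was -0.21, -0.15 and -0.31 in PBS pairs 1 to 3 and -0.30, -0.24 and -0.30 in VIP pairs. All 6 medians were negative, while those of all genes lay between 0.00 and 0.02. Lower values in all 3 pairs were found for 21 genes with PBS (20.1% of all genes) and 27 with VIP (21.6%). All 3 ACREB libraries lay below all 3 control libraries for 6 genes with PBS (4.44% of all genes) and 17 with VIP (7.06%). Lower values in all 6 pairs were found for 15 genes, 38.5% of the list against 7.76% of all genes. Another 15 were lower in 5 of 6 pairs, and 1, Rnf213, was higher in all 6, against 8.44% of all genes. The 15 genes lower in all 6 pairs were Irf7, Ifih1, Ifit1, Oasl2, Oas1a, Mx2, Bst2, Isg15, Usp18, Gbp2, Cxcl10, Lgals3bp, Ifi27, Ifi44 and Rtp4.

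**Figure D1:**
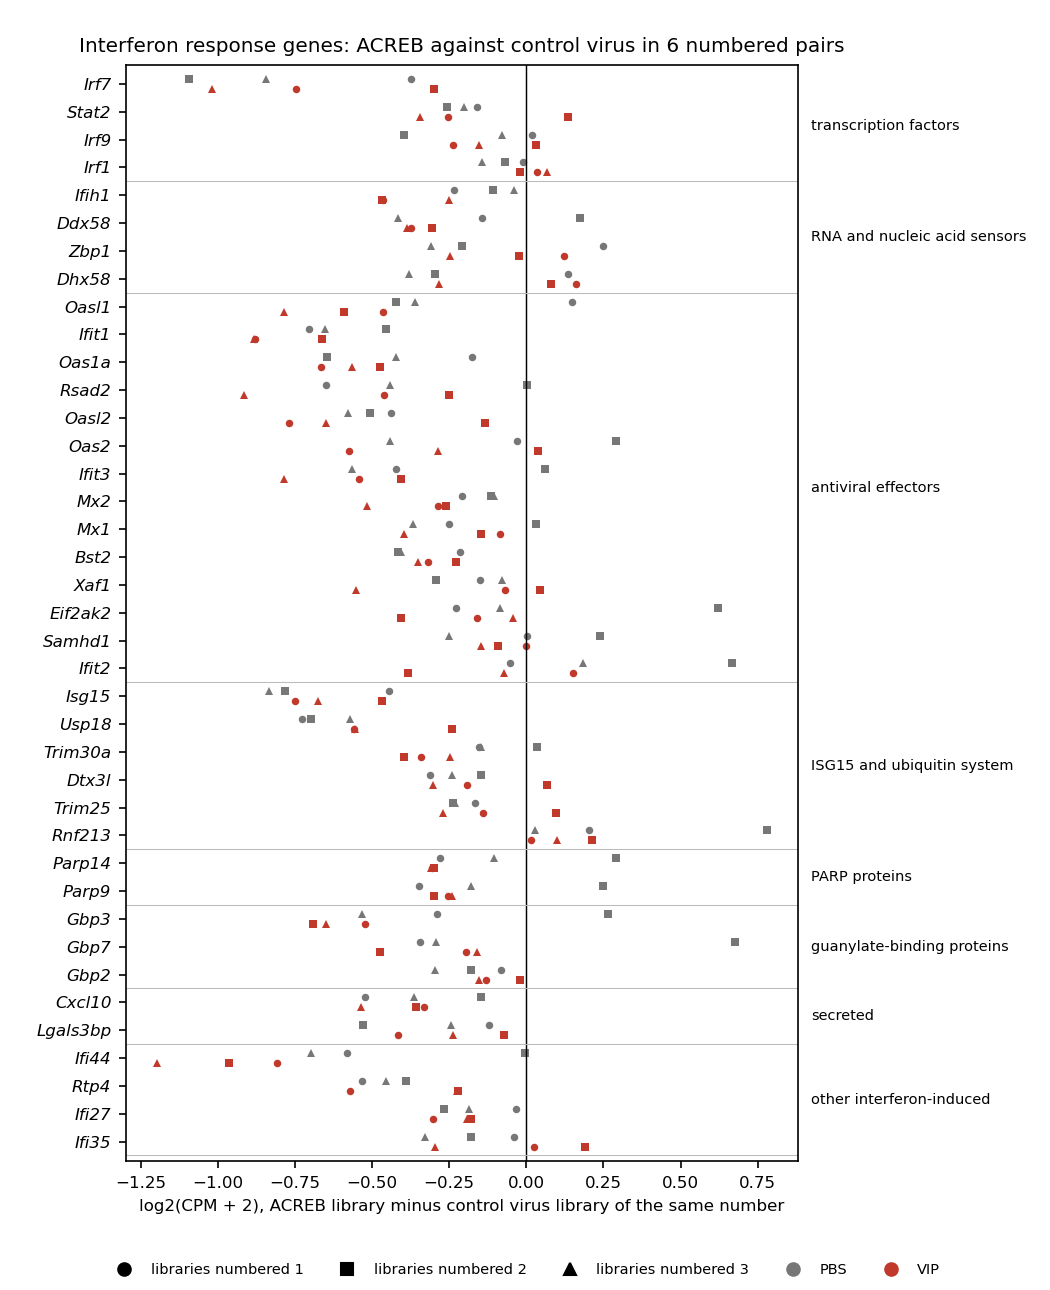
ACREB minus control virus in each of the 6 numbered pairs, for the 39 interferon response genes grouped by role. The x axis is the difference in log2(CPM + 2), marker shape gives the library number, grey is PBS and red is VIP. Most points lie left of 0, all 6 points do for 15 genes, and only Rnf213 has all 6 on the right.

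In the fit with the replicate number as a block, again 0 of 39 passed in either treatment (smallest adjusted p = 0.068 with PBS and 0.065 with VIP), beside 0.137% and 0.215% of all genes called lower and 0.0835% and 0.149% called higher by edgeR. At an unadjusted p under 0.05, 10 and 16 were lower (5.36% and 4.87% of all genes). DESeq2's Wald test called 1 lower with PBS, Irf7 (adjusted p = 0.019), and 1 lower with VIP, Oasl1 (adjusted p = 0.011), where it called 0.436% and 0.513% of all genes lower. With offsets for GC content and length together with the block, edgeR called 6 lower with PBS (1.01% of all genes) and 13 with VIP (2.11%). The 6 were Irf7, Ifit1, Bst2, Isg15, Usp18 and Rtp4, and all 6 were among the 13, which added Ifit3, Oasl1, Oasl2, Oas1a, Gbp3, Cxcl10 and Ifi27. Neither tool called a member higher in these fits.

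Since the treatments gave values of like sign, 1 contrast of the 6 ACREB against the 6 control libraries, the mean of both treatments, was added after these values had been seen. By edgeR it called 1 of 39 lower, Irf7, where 0.436% of all genes were called lower and 0.239% higher. With the block it called 9 lower and 0 higher, where 1.71% and 1.74% of all genes were called. The 9 genes were Irf7, Ifit1, Oasl1, Oasl2, Oas1a, Isg15, Usp18, Cxcl10 and Rtp4. They are described first within their roles, and "passed" below refers to this contrast in the fit with the block unless stated.

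**Figure D2:**
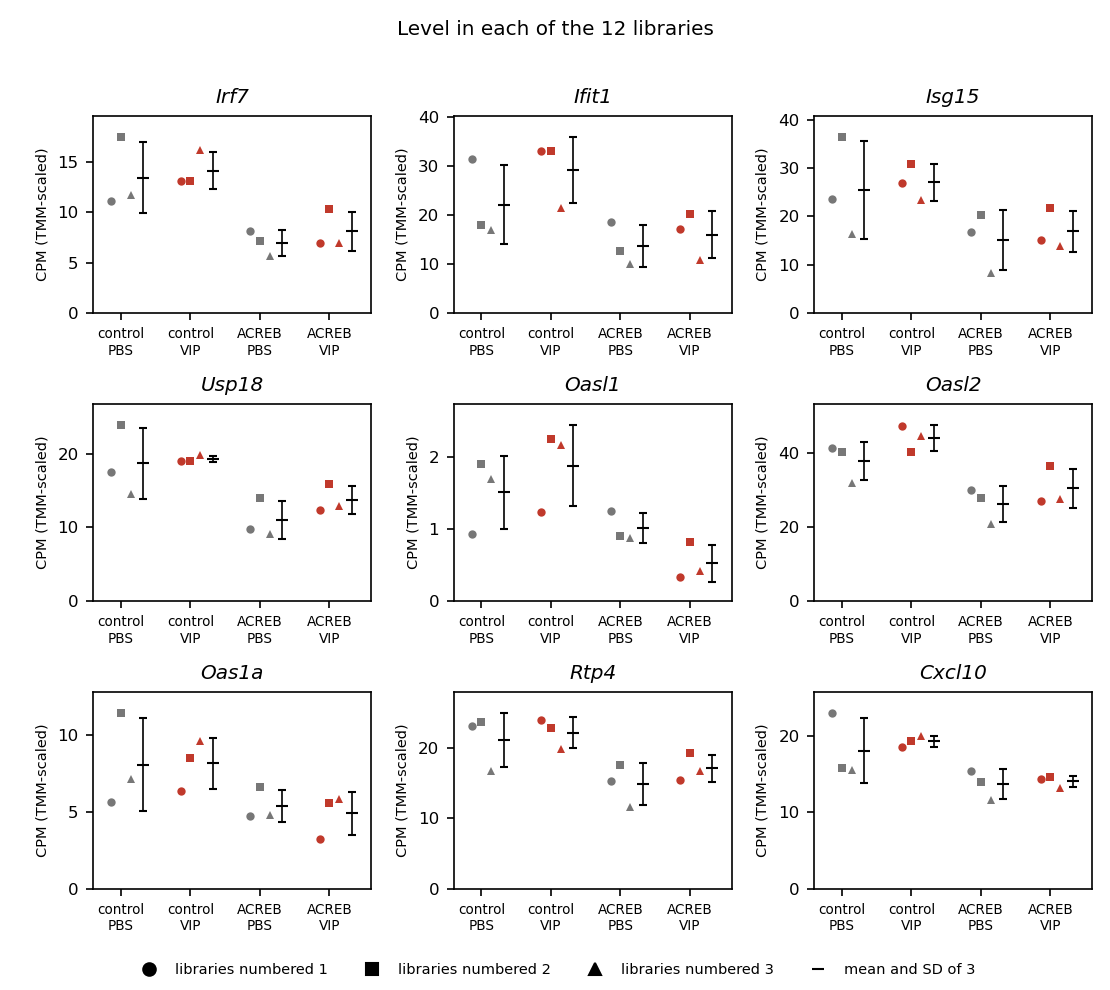
Level of the 9 genes in each of the 12 libraries. The y axis is CPM from 0, marker shape gives the library number, grey is PBS, red is VIP, and black bars are the mean and SD of 3 libraries. For Irf7 all 6 ACREB libraries lie below all 6 control libraries, and for Usp18 and Oasl2 the ACREB libraries lie below the control libraries of the same treatment.

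Among the transcription factors, Irf7 was the member with the clearest difference. IRF7 is the factor that amplifies type I interferon production and is itself induced by interferon. Irf7 (chromosome 7, 141262706 to 141266481, GRCm38) measured 11.1, 17.5 and 11.7 CPM in libraries 1 to 3 of control PBS, 13.0, 13.1 and 16.2 CPM in control VIP, 8.13, 7.14 and 5.62 CPM in ACREB PBS and 6.96, 10.3 and 6.98 CPM in ACREB VIP. Every ACREB library lay below every control library, with a highest ACREB value of 10.3 and a lowest control value of 11.1 CPM. The log2 fold change was -0.94 with PBS (SE 0.23) and -0.81 with VIP (SE 0.23), by edgeR with adjusted p = 0.27 and 0.40. For the mean of both treatments Irf7 fell by 0.87 on the log2 scale (SE 0.16, adjusted p = 0.030 by edgeR, 0.010 with the block), a fold of 0.545. Leaving out 1 library at a time, Irf7 passed by edgeR in 3 of 12 fits, those without control PBS library 1, control PBS library 2 or ACREB VIP library 2. In the other 9 fits no member passed, and the smallest adjusted p by edgeR was 0.052 to 0.094. Irf7 overlaps Phrf1 on the opposite strand. The libraries were strand-specific, but the strand setting of the counting is not given in the sources used here, so its counts are uncertain.

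The other factors differed less. Irf9, the DNA-binding part of ISGF3, was the member of this role with the highest CPM, at 50.9 ± 11.5, 49.3 ± 4.74, 45.2 ± 7.02 and 45.1 ± 1.21 CPM in control PBS, control VIP, ACREB PBS and ACREB VIP (SD, n = 3). Its libraries were 50.4, 62.7 and 39.6 CPM in control PBS and 51.1, 47.1 and 37.4 CPM in ACREB PBS, and these groups overlapped. Irf9 overlaps Rnf31 on its own strand. Stat2, its partner in ISGF3, measured 44.9 ± 7.68 and 38.6 ± 6.35 CPM with PBS, a log2 fold change of -0.22 (edgeR adjusted p = 0.96). Irf1, an early factor induced by interferon gamma and by inflammatory signals, measured 30.4, 37.4 and 27.4 CPM in libraries 1 to 3 of control PBS, 23.4, 24.1 and 24.1 CPM in control VIP, 30.2, 35.6 and 24.6 CPM in ACREB PBS and 24.0, 23.8 and 25.3 CPM in ACREB VIP. The ACREB difference of Irf1 lay near 0, at -0.07 with PBS (SE 0.15) and 0.03 with VIP (SE 0.15), and its VIP difference is given with that comparison.

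The 4 sensors, Ddx58 (RIG-I) and Ifih1 (MDA5), which bind viral RNA, Dhx58 (LGP2), their regulator, and Zbp1, a sensor of left-handed nucleic acid, all lay below 0 in both treatments, and 0 passed. Ddx58, the one with the highest CPM, measured 60.2, 38.3 and 54.7 CPM in libraries 1 to 3 of control PBS, 66.9, 66.6 and 53.2 CPM in control VIP, 54.3, 43.5 and 40.5 CPM in ACREB PBS and 51.2, 53.5 and 40.2 CPM in ACREB VIP. Only with VIP was the direction the same in all 3 pairs, at -0.37, -0.31 and -0.39 against -0.14, 0.17 and -0.41 with PBS. Ifih1 was lower in all 6 pairs, by -0.23, -0.11 and -0.04 with PBS and -0.46, -0.47 and -0.25 with VIP, on log2(CPM + 2). Its log2 fold change was -0.15 with PBS (SE 0.24) and -0.43 with VIP (SE 0.24) by edgeR (adjusted p = 0.96 and 1.00). Dhx58, which overlaps Dhx58os, and Zbp1 had no common direction, with 3 and 4 of 6 pairs lower.

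The antiviral effectors were the largest role group, with 14 genes. Of these, 13 lay below 0 with PBS (median -0.34) and 14 with VIP (median -0.55), and 4 passed: Ifit1, Oasl1, Oasl2 and Oas1a. IFIT1 binds viral RNA that lacks the host's cap methylation. Ifit1 (chromosome 19, 34640871 to 34650009), whose promoter ISRE is printed above, measured 31.4, 18 and 17.0 CPM in libraries 1 to 3 of control PBS, 33.0, 33.1 and 21.4 CPM in control VIP, 18.5, 12.6 and 10.1 CPM in ACREB PBS and 17.1, 20.2 and 10.7 CPM in ACREB VIP. Within every pair the ACREB library was lower, by -0.70, -0.46 and -0.65 with PBS and -0.88, -0.66 and -0.88 with VIP on log2(CPM + 2), although the groups overlapped with PBS. Ifit1 had a log2 fold change of -0.78 for the mean of both treatments (SE 0.13, adjusted p = 0.0096 by edgeR with the block, 0.17 without).

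Ifit3, which stabilises IFIT1 and had the highest CPM of the effectors, measured 137.5, 91.4 and 100.6 CPM in libraries 1 to 3 of control PBS, 122.3, 142.6 and 106.3 CPM in control VIP, 102.0, 95.3 and 67.3 CPM in ACREB PBS and 83.4, 107.0 and 60.8 CPM in ACREB VIP. With VIP it was lower in all 3 pairs (-0.54, -0.41 and -0.79), and with PBS in pairs 1 and 3 (-0.42, 0.06 and -0.57). It did not pass for the mean of both treatments (adjusted p = 0.059 by edgeR with the block). Ifit3 has a near-identical neighbour, Ifit3b, so reads may be split between them. Ifit2, the neighbouring gene for a related protein, had 0.17 with PBS (SE 0.35) and -0.10 with VIP (SE 0.35), with 3 of 6 pairs lower.

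The oligoadenylate synthetase family includes enzymes that make 2'-5' oligoadenylate, the activator of RNase L, and OAS-like proteins. Oasl2, an OAS-like gene (chromosome 5, 114896936 to 114912234), measured 41.4, 40.4 and 31.9 CPM in libraries 1 to 3 of control PBS, 47.4, 40.4 and 44.6 CPM in control VIP, 30.0, 27.8 and 20.7 CPM in ACREB PBS and 27.0, 36.6 and 27.7 CPM in ACREB VIP. In each treatment every ACREB library lay below every control library, and the log2 fold change was -0.53 with PBS (SE 0.17) and -0.54 with VIP (SE 0.17). Oasl2 passed for the mean of both treatments (log2 -0.54, SE 0.10, adjusted p = 0.017 by edgeR with the block, 0.074 without). Oas1a measured 5.61, 11.4 and 7.11 CPM in libraries 1 to 3 of control PBS, 6.34, 8.49 and 9.61 CPM in control VIP, 4.75, 6.59 and 4.80 CPM in ACREB PBS and 3.26, 5.56 and 5.85 CPM in ACREB VIP. It was lower in all 6 pairs and passed with a log2 fold change of -0.65 (SE 0.14, adjusted p = 0.028 by edgeR with the block, 0.25 without). Oas1a resembles Oas1g, so their counts are uncertain.

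Oasl1, the other OAS-like gene, which is known to restrain translation of IRF7, had the largest fold of the 39 with VIP and one of the lowest levels, with 275 counts in all. It measured 0.935, 1.90 and 1.70 CPM in libraries 1 to 3 of control PBS, 1.23, 2.25 and 2.16 CPM in control VIP, 1.25, 0.907 and 0.878 CPM in ACREB PBS and 0.337, 0.818 and 0.414 CPM in ACREB VIP. With VIP all 3 ACREB libraries lay below all 3 control libraries, while with PBS the groups overlapped and ACREB library 1 was above its control. The log2 fold change was -0.56 with PBS (SE 0.39) and -1.83 with VIP (SE 0.41), by edgeR with adjusted p = 0.96 and 0.24. Oasl1 passed for the mean of both treatments (log2 -1.17, SE 0.26, adjusted p = 0.032 by edgeR with the block, 0.095 without). Oasl1 overlaps Gm13822 on the opposite strand, and its counts are uncertain.

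Of the other effectors, Mx2, a gene of the dynamin-like GTPases, is annotated as a polymorphic pseudogene in the mouse reference. Mx2 measured 2.39, 2.59 and 2.6 CPM in libraries 1 to 3 of control PBS, 3.17, 3.6 and 3.75 CPM in control VIP, 1.80, 2.24 and 2.28 CPM in ACREB PBS and 2.25, 2.67 and 2.02 CPM in ACREB VIP. Its groups did not overlap in either treatment, with log2 fold changes of -0.26 with PBS (SE 0.20) and -0.60 with VIP (SE 0.20) (adjusted p = 0.96 and 0.56 by edgeR). Bst2 was lower in all 6 pairs, with 111.1 ± 22.2 and 86.5 ± 12.9 CPM with PBS and 108.8 ± 17.0 and 88.0 ± 12.5 CPM with VIP. Rsad2, viperin, an enzyme that makes a chain-terminating nucleotide, had -0.51 with PBS (SE 0.29) and -0.61 with VIP (SE 0.29) and was lower in 5 of 6 pairs. Mx1, which is nonfunctional in C57BL/6 mice, Xaf1, a pro-apoptotic gene, and Oas2 had fold changes between -0.79 and -0.19, in groups that overlapped. Eif2ak2, the kinase PKR, and Samhd1, a dNTP hydrolase, lay nearest 0 with PBS, at -0.03 and -0.01. Eif2ak2 overlaps Gm26637 and n-R5s29.

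In the ISG15 and ubiquitin group, Isg15 and Usp18 passed. ISG15 is a ubiquitin-like protein that is joined to other proteins during the response, and USP18 removes it and also blocks the interferon receptor. Isg15 (chromosome 4, 156199424 to 156200818) measured 23.6, 36.5 and 16.3 CPM in libraries 1 to 3 of control PBS, 26.9, 30.9 and 23.3 CPM in control VIP, 16.8, 20.4 and 8.25 CPM in ACREB PBS and 15.2, 21.8 and 13.9 CPM in ACREB VIP. Library 2 was the highest and library 3 the lowest of every group, and in every pair the ACREB library was lower (-0.44, -0.78 and -0.84 with PBS, -0.75, -0.47 and -0.68 with VIP). Isg15 passed with the block (log2 -0.72, SE 0.12, adjusted p = 0.012 by edgeR) and had an adjusted p of 0.27 without it.

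Usp18 (chromosome 6, 121245906 to 121270917) measured 17.6, 23.9 and 14.5 CPM in libraries 1 to 3 of control PBS, 19.0, 19.0 and 19.8 CPM in control VIP, 9.82, 14 and 9.13 CPM in ACREB PBS and 12.3, 15.8 and 12.8 CPM in ACREB VIP. Within each treatment all ACREB libraries lay below all control libraries. The log2 fold change was -0.77 with PBS (SE 0.20) and -0.50 with VIP (SE 0.20), and for the mean of both it was -0.64 (SE 0.10, adjusted p = 0.0096 by edgeR with the block, 0.078 without). Usp18 overlaps Gm44148 on the opposite strand.

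Rnf213 was the exception of this group and of the list. It measured 170.5, 96.5 and 169.1 CPM in libraries 1 to 3 of control PBS, 194.9, 167.8 and 170.9 CPM in control VIP, 196.6, 167.3 and 172.6 CPM in ACREB PBS and 196.8, 194.6 and 183.1 CPM in ACREB VIP. ACREB libraries were above their controls in all 6 pairs, by 0.20, 0.78 and 0.03 with PBS and 0.01, 0.21 and 0.10 with VIP, and the largest difference was in PBS pair 2, whose control library is the one that stood apart. The log2 fold change was 0.30 with PBS (SE 0.18) and 0.11 with VIP (SE 0.18) and did not pass (adjusted p = 0.96 and 1.00 by edgeR). Rnf213 overlaps A930037H05Rik. Trim25, which activates RIG-I, Trim30a, a regulator of NF-kB signalling, and Dtx3l, the ubiquitin ligase partner of PARP9, were each lower in 5 of 6 pairs, with fold changes of -0.22, -0.12 and -0.26 with PBS.

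Parp9 and Parp14, ADP-ribosylation proteins, were each lower in 5 of 6 pairs, the exception again being PBS pair 2. Parp14 measured 52.8, 17.4 and 42.8 CPM in libraries 1 to 3 of control PBS, 55.5, 46.7 and 40.3 CPM in control VIP, 43.2, 21.8 and 39.7 CPM in ACREB PBS and 44.6, 37.6 and 32.2 CPM in ACREB VIP. Its value of 17.4 CPM in control PBS library 2 was the lowest of the 12. Dtx3l and Parp9 lie on opposite strands and overlap each other, and Parp14 overlaps Gm49730 on its own strand, so these counts are uncertain.

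The guanylate-binding proteins are GTPases that attack intracellular microbes and their vacuoles. Gbp3 measured 45.2, 19.5 and 37.0 CPM in libraries 1 to 3 of control PBS, 52.3, 45.5 and 43.3 CPM in control VIP, 36.6, 23.8 and 25.0 CPM in ACREB PBS and 35.8, 27.4 and 26.9 CPM in ACREB VIP. With VIP all 3 ACREB libraries lay below all control libraries (log2 -0.65, SE 0.26, adjusted p = 0.76 by edgeR), whereas with PBS the groups overlapped (-0.25, SE 0.27). Gbp2, the one with the highest CPM, measured 52.9, 51.2 and 46.7 CPM in libraries 1 to 3 of control PBS, 53.1, 48.8 and 52.3 CPM in control VIP, 49.9, 45.0 and 37.6 CPM in ACREB PBS and 48.3, 48.1 and 46.8 CPM in ACREB VIP. The differences of Gbp2 were small but of 1 sign, at -0.08, -0.18 and -0.30 in PBS pairs and -0.13, -0.02 and -0.15 in VIP pairs. Gbp7 had -0.14 with PBS (SE 0.40) and -0.31 with VIP (SE 0.39). Members of the Gbp family resemble each other, Gbp2 overlaps Mir6381 and Gbp7 overlaps Gm43802.

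Both secreted proteins were lower in all 6 pairs. Cxcl10, a chemokine that draws T cells (chromosome 5, 92346638 to 92348889), measured 23.1, 15.8 and 15.5 CPM in libraries 1 to 3 of control PBS, 18.5, 19.3 and 20.0 CPM in control VIP, 15.4, 14 and 11.6 CPM in ACREB PBS and 14.3, 14.7 and 13.2 CPM in ACREB VIP. No ACREB library reached the lowest control library, at 15.4 against 15.5 CPM. Cxcl10 passed with the block (log2 -0.43, SE 0.10, adjusted p = 0.045 by edgeR) and had 0.15 without it, and it overlaps Art3 on the opposite strand. Lgals3bp measured 90.4, 161.5 and 97.5 CPM in libraries 1 to 3 of control PBS, 101.1, 118.5 and 115.8 CPM in control VIP, 83.0, 111.2 and 82.0 CPM in ACREB PBS and 75.2, 112.6 and 98.0 CPM in ACREB VIP. Its groups overlapped in both treatments and its log2 fold change was -0.34 with PBS (SE 0.22) and -0.23 with VIP (SE 0.22).

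Of the remaining genes, Rtp4, a receptor-transporting protein that limits interferon responses, passed. Rtp4 (chromosome 16, 23520291 to 23614222) measured 23.1, 23.7 and 16.7 CPM in libraries 1 to 3 of control PBS, 24.0, 22.8 and 19.8 CPM in control VIP, 15.3, 17.6 and 11.6 CPM in ACREB PBS and 15.5, 19.2 and 16.7 CPM in ACREB VIP. It was lower in every pair (-0.53, -0.39 and -0.46 with PBS, -0.57, -0.22 and -0.22 with VIP) and passed with a log2 fold change of -0.44 (SE 0.09, adjusted p = 0.025 by edgeR with the block, 0.18 without). Rtp4 overlaps Gm45338 on its own strand. Ifi27 measured 131.6, 177.6 and 105.2 CPM in libraries 1 to 3 of control PBS, 149.2, 149.7 and 138.4 CPM in control VIP, 128.4, 147.3 and 92.3 CPM in ACREB PBS and 120.6, 131.9 and 120.8 CPM in ACREB VIP. All 6 pairs of Ifi27 were lower, by -0.03, -0.27 and -0.19 and -0.30, -0.18 and -0.19. Ifi44, a gene of little-known function, had the second largest fold with VIP, from 11.9 ± 2.71 to 5.14 ± 2.18 CPM (log2 -1.21, SE 0.53, adjusted p = 0.84 by edgeR). Ifi35, which overlaps Gm11626, was lower in 4 of 6 pairs.

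The order of the genes was alike in both treatments. Across the 39 genes the ACREB log2 fold change with PBS and that with VIP had a Pearson r of 0.67 and a Spearman rho of 0.73, against 0.44 and 0.36 across all genes. The comparisons share no library but share the library numbers, genes are not independent replicates, and the value is a description. Genes with higher CPM had fold changes nearer 0 (r = 0.54 and rho = 0.50 between log2 mean CPM and the mean fold change, across 39 genes). The genes with an ISRE match in the 300-base window had a median of -0.25 with PBS and -0.43 with VIP, with 15 of 15 below 0 in each. The 14 matched genes without one had medians of -0.22 and -0.14, with 12 of 14 below 0 in each. For the TGACG core the 5 genes with it had medians of -0.53 and -0.61 (5 of 5 below 0 in each) and the 24 without it -0.21 and -0.23 (22 of 24 in each). For the gamma-activated site the 8 genes with it had medians of -0.11 and -0.16 (7 of 8 in each) and the 21 without it -0.26 and -0.43 (20 of 21 in each). These splits are descriptions of few genes and were not tested.

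**Figure D3:**
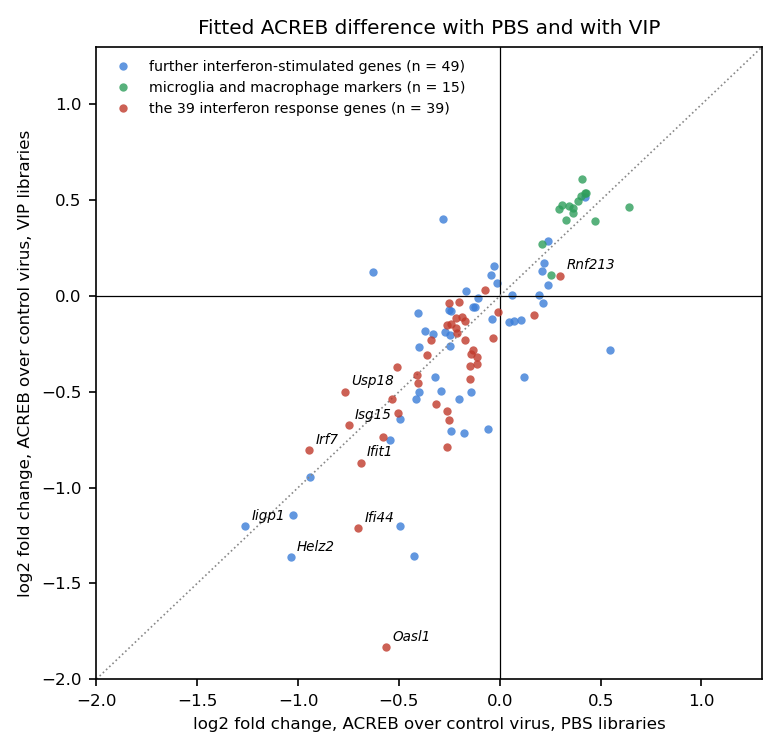
Fitted log2 fold change of ACREB over control virus with PBS (x axis) and with VIP (y axis), for the 39 interferon response genes, 49 further interferon-stimulated genes and 15 microglia and macrophage markers. The dotted line marks equal values. 36 of the 39 genes lie in the lower left quadrant, and 15 of 15 microglia markers lie in the upper right.

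Other interferon-stimulated genes, from a list of 50 with 49 tested, also lay mostly below 0. This list too was chosen with earlier results of these data known, so its counts are not independent support. With PBS 36 of 49 lay below 0 (median -0.20), against 48.8% of all genes, and 1 passed edgeR's test as lower, against 0.0298%. With VIP 36 lay below 0 (median -0.18), against 49.6%, and 1 passed, against 0.0358%. The gene that passed in both was Helz2, a helicase co-activator gene. Helz2 measured 13.1, 16.8 and 16.0 CPM in libraries 1 to 3 of control PBS, 25.1, 22.8 and 19.2 CPM in control VIP, 7.69, 7.68 and 7.03 CPM in ACREB PBS and 8.25, 9.05 and 8.79 CPM in ACREB VIP. All 6 ACREB libraries lay below all 6 control libraries, and Helz2 fell by 1.04 on the log2 scale with PBS (SE 0.15, edgeR adjusted p = 0.040) and by 1.36 with VIP (SE 0.14, adjusted p = 0.011). Of the 49, 16 were lower in all 6 pairs and 0 higher, against 7.76% and 8.44% of all genes. For the mean of both treatments with the block, 6 of 49 passed, all lower, against 1.71% of all genes, and without the block 1 passed, Helz2, against 0.436%. The 6 were Helz2, the immunity-related GTPase genes Iigp1 and Igtp, Oas1g (-0.89), Pml (-0.33), the scaffold of PML bodies, and Apol9b (-0.56). Iigp1 had a log2 fold change of -1.26 (SE 0.19, adjusted p = 0.0076 by edgeR with the block) and Igtp of -0.37 (SE 0.08, adjusted p = 0.025).

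The genes upstream of the response lay on both sides of 0. Of 26 ligand, receptor and signalling genes 19 were tested, 8 lay below 0 in each treatment (medians 0.02 and 0.05), and 0 passed by edgeR with or without the block in any of the comparisons. Socs1, an inhibitor of JAK kinases, had -0.72 with VIP (SE 0.34). Of 18 sensing genes 17 were tested, with 7 and 8 below 0 (medians 0.06 and 0.00). Adar, the RNA-editing enzyme that marks cellular RNA as self, passed for the mean of both treatments with the block (log2 -0.33, SE 0.06, adjusted p = 0.021 by edgeR), with ACREB libraries below control libraries in both treatments.

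Microglia also express interferon-stimulated genes, so their markers are given beside these values. Summed over 15 markers, the level was 2324 ± 725 CPM in control PBS, 2153 ± 978 in control VIP, 3038 ± 848 in ACREB PBS and 2999 ± 986 in ACREB VIP (SD, n = 3). All 15 markers lay above 0 in both treatments and 14 were higher in all 6 pairs, opposite to the 39 genes, and 11 passed as higher for the mean of both treatments with the block, where 1.74% of all genes did. Without the block 0 of 15 passed by edgeR (smallest adjusted p = 0.53), and 0 were past an unadjusted p of 0.05. Tyrobp and Trem2, named here after their values were seen, were among the 15 markers, with log2 fold changes of 0.49 and 0.52. Astrocyte markers summed to within 0.10 on the log2 scale of their control in all 6 pairs. Of 8 oligodendrocyte lineage markers, 6 lay below 0 in each treatment (medians -0.31 with PBS and -0.06 with VIP) and 0 passed, and their summed level differed by -0.18, -0.43 and -0.08 in the PBS pairs and by -0.11, 0.02 and 0.05 in the VIP pairs. Of 8 fibroblast and mural cell markers, 4 lay below 0 in each treatment, and the collagen genes Col1a1 (-0.56) and Col1a2 (-0.48) passed as lower for the mean of both treatments with the block and 0 without it. In bulk samples, fewer cells of a type and less RNA per cell cannot be told apart, and the part of cell composition in the ACREB values was not tested. Of 7 endothelial markers 2 were tested and Cldn5 was at 0. For the mean of both treatments with the block, 1 endothelial marker passed as higher, where 1.74% of all genes did. In that fit 1 of 7 neuronal markers tested was called higher and 1 lower (1.71% of all genes). Of 4 ependymal markers tested 1 was called higher. Without the block 0 of these passed by edgeR.

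**Figure D4:**
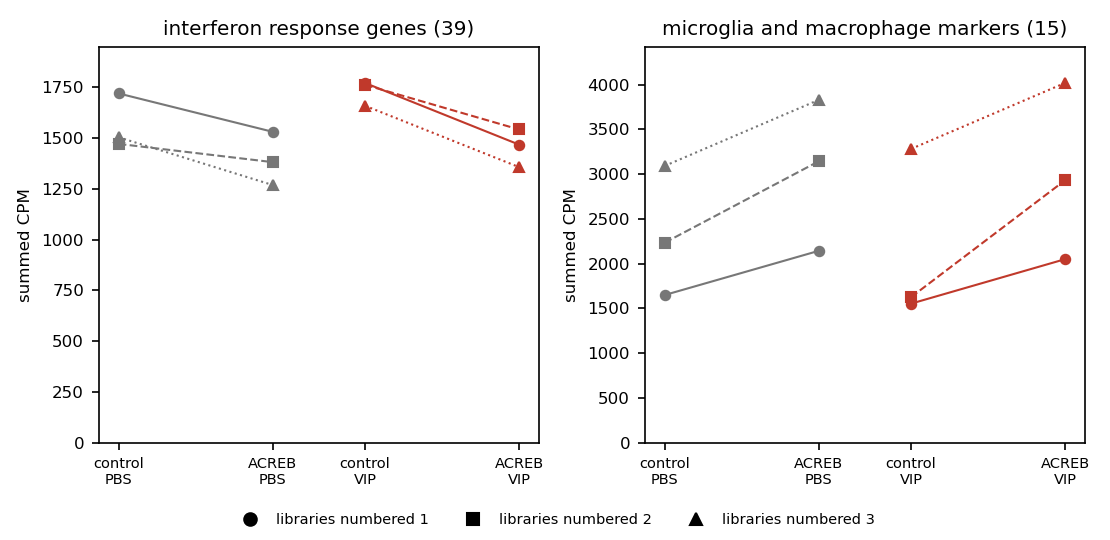
Summed CPM of the 39 interferon response genes (left) and of the 15 microglia and macrophage markers (right), in each library. Lines join libraries of the same number, marker shape gives the number, grey is PBS and red is VIP. All 6 lines slope down from control virus to ACREB on the left and up on the right.

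The comparison of VIP with PBS asked whether the peptide itself moved these genes. With control virus, 0 of 39 passed edgeR's test in either direction, with or without the block, where 0.424% of all genes were called higher and 0.0656% lower without it and 1.1% and 0.537% with it. The median was 0.13 (all genes -0.02) and 9 of 39 lay below 0, against 53.2% of all genes. The numbered pairs had medians of 0.09, 0.12 and 0.17 on log2(CPM + 2). In all 3 pairs 8 genes were higher (20.5%, against 11.5% of all genes), and with each library's trend over GC and length taken out it was 13 genes, against 14.2% of all genes. At an unadjusted p under 0.05, 1 was higher, Mx2, and 1 lower, Irf1, against 3.28% and 3.14% of all genes.

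Irf1 measured 31.7 ± 5.10 CPM with PBS and 23.9 ± 0.39 with VIP (SD, n = 3), and all 3 VIP libraries lay below all 3 PBS libraries. The log2 fold change was -0.41 (SE 0.15, edgeR adjusted p = 0.55). With ACREB, Irf1 measured 30.1 ± 5.46 and 24.4 ± 0.843 CPM, a log2 fold change of -0.30 (SE 0.15, adjusted p = 1.00 by edgeR). Irf1 overlaps Gm17334 on the opposite strand. Mx2 was higher with VIP in all 3 control pairs (0.24, 0.29 and 0.32), with a log2 fold change of 0.47 (SE 0.20, adjusted p = 0.70 by edgeR). Gbp3 came next, at 0.47 (SE 0.26), with 0.20, 1.14 and 0.22 in the pairs, so most of its difference came from pair 2.

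With ACREB, 0 of 39 passed for VIP against PBS by edgeR in either fit, where 0.0119% of all genes were called higher and 0% lower without the block and 0.0776% and 0% with it. The median was 0.08 (all genes 0.00), and the pairs had medians of -0.05, 0.13 and 0.08. At an unadjusted p under 0.05, 1 was lower (0.644% of all genes) and 0 higher (1.28%). The gene was Oasl1, at -0.95 (SE 0.44, edgeR adjusted p = 1.00). Usp18 was higher in all 3 pairs, by 0.27, 0.16 and 0.41 on log2(CPM + 2). The interaction, which tests whether the VIP difference depends on ACREB, called 0 of 39 and 0% of all genes by edgeR in either fit. At an unadjusted p under 0.05, 1 was lower (0.65% of all genes) and 0 higher (0.549%). Its median over the 39 genes was -0.06. The 3 smallest p were those of Oasl1 (-1.27, SE 0.57, unadjusted p = 0.047), Mx2 (-0.34, SE 0.28) and Gbp3 (-0.39, SE 0.37), each with an edgeR adjusted p of 1.00.

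The VIP comparison with control virus and the ACREB comparison with PBS share the control PBS libraries, and library 2 of that group had unusual values for several of the genes. It held the lowest value of the 12 for Eif2ak2 (23.5 CPM), Gbp7 (5.35), Ifit2 (33.3) and Parp14 (17.4), and the highest for Isg15 (36.5), Irf7 (17.5), Oas1a (11.4) and Lgals3bp (161.5). Across the 39 genes its log2 departure from the mean of all libraries had a Pearson r of 0.81 with transcript GC content, as a description over genes of 1 library. The GC content of the 39 genes had a median of 49.3%, and that of all genes 49.6%. The VIP log2 fold change with control virus had r = -0.67 with GC, and the ACREB fold change averaged over treatments had r = -0.10. The averaged contrast gives control PBS library 2 less weight. It also sets that library against ACREB PBS library 2, whose departure had r = 0.76 with GC across the 39 genes. Whether this accounts for the unlike r values of the fold changes was not tested. The value for ACREB with PBS alone is not given here. With each library's trend over GC and length taken out, 25 genes were lower in all 3 ACREB pairs with PBS (22.4% of all genes) and 28 with VIP (23.3%). Without both PBS libraries numbered 2, an alternative added after seeing the data, 37 of 39 lay below 0 in each treatment (medians -0.28 and -0.32). That fit with the block called 2 lower with PBS, Ifit1 and Usp18 (0.258% of all genes), and 18 with VIP (3.2%).

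**Figure D5:**
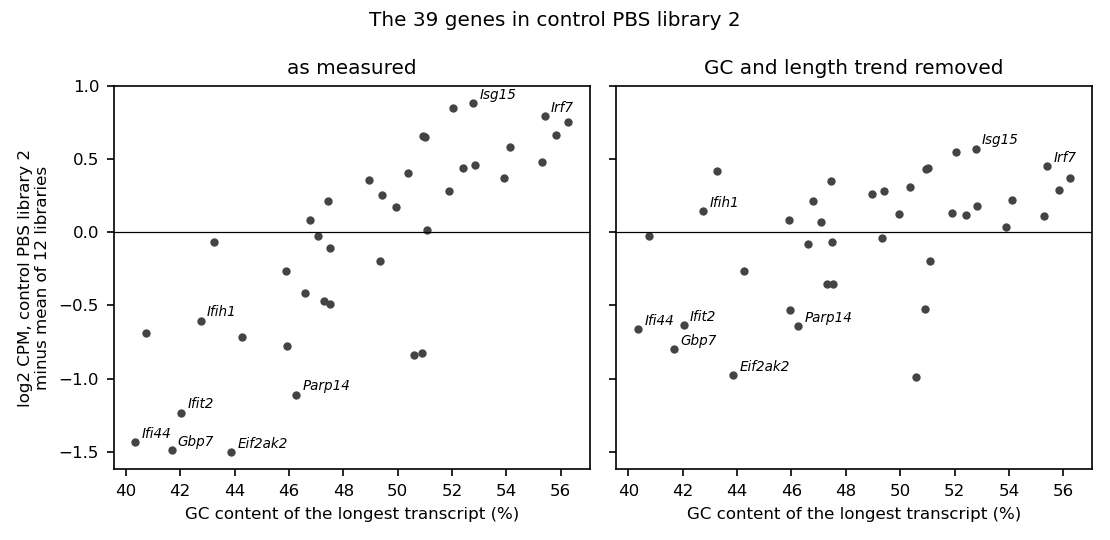
Departure of control PBS library 2 from the mean of the 12 libraries, in log2 CPM, against the GC content of the longest transcript, for the 39 interferon response genes. The left panel shows the values as measured and the right panel those with the trend over GC and length of all genes taken out. Ifi44, Gbp7 and Eif2ak2, genes of low GC, lie below 0 and Isg15 and Irf7 above it in both panels, and all of these lie nearer 0 in the right panel. Not every gene of low GC stays below 0, and Ifih1 moves from -0.60 to 0.14.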

How the data were processed

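The values are deposited read counts per gene for 12 polyA RNA libraries. The authors trimmed reads with Trimmomatic 0.39, aligned them with STAR 2.7.1a to GRCm38 (mm10) and counted them with HTSeq 0.11.2, per the submitters' processing notes, which also name R 3.6.1 and edgeR. For the strand setting of the counting and the annotation release, nothing is given in the sources used here. Genes were placed with GENCODE vM21.

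From the counts, genes were filtered with filterByExpr, libraries were scaled by TMM, and 1 model over the 4 groups was fitted with the quasi-likelihood test of edgeR 4.0.16 (R 4.3.3, limma 3.58.1), with 8 residual degrees of freedom and Benjamini-Hochberg adjustment. The SE is the absolute log2 fold change divided by the square root of the F statistic. Differences within numbered pairs use log2(CPM + 2). The members and lists were chosen with earlier results of these data known. Genes named with values in each library are those that passed, those with the smallest p in each comparison, and the one with the highest CPM in each role.

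Samples of the same number in different groups were compared by the correlation of their departures from the group means. All 18 such pairs had r between 0.132 and 0.679, and 12 of 12 libraries correlated best with their own number, so a fit blocked on library number (residual degrees of freedom 6) is given beside the results. Alternatives were DESeq2 1.42.0, no filter, offsets for GC and length, another pseudocount and leaving out each library. The contrast averaged over both treatments and the fits without both PBS libraries numbered 2, with and without the block, were chosen after seeing the data. Values of some single genes are not reported here.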

Additional observations from a re-analysis of the deposited data

Results flagged for a closer look

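Oasl1 was higher with VIP than with PBS in all 3 pairs of control virus libraries, by 0.14, 0.12 and 0.17 on log2(CPM + 2), and lower in all 3 pairs of ACREB libraries, by -0.48, -0.05 and -0.25. The mean difference between these sets of pairs was -0.40. The interaction term for Oasl1 tested this difference, and by edgeR it was -1.27 on the log2 scale (unadjusted p = 0.047, adjusted p = 1.00), so it did not pass. Oasl1 had 275 counts over the 12 libraries.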

How the results depend on the processing

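With the replicate number as a block, the count of members called stayed at 0 for ACREB with PBS, ACREB with VIP, both VIP comparisons and the interaction, and went from 1 to 9 for the mean of both treatments. For ACREB with PBS, DESeq2 called 1 lower, offsets for GC and length with the block 6, and the block without both PBS libraries numbered 2 called 2. For ACREB with VIP these were 1, 13 and 18. For the mean of both treatments the calls were 3 without a filter on low counts (0.276% of all genes called lower), 7 by DESeq2 (1.55%), 6 with the offsets (1.35%), 18 with the offsets and the block (4.89%), 2 without both PBS libraries numbered 2 (0.610%) and 19 with the block added to that (3.70%), and 0 to 2 when 1 library was left out (0.140% to 0.695%). The share of all genes called, 0.436% without and 1.71% with the block, thus also differed between settings. All of these calls were lower.

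Leaving out 1 library, the median log2 fold change of the members ranged from -0.35 to -0.21 for ACREB with PBS, from -0.42 to -0.27 for ACREB with VIP, from 0.085 to 0.169 for VIP with control virus, from 0.018 to 0.176 for VIP with ACREB and from -0.142 to 0.030 for the interaction. The median for VIP with control virus was 0.087 with the block and without both PBS libraries numbered 2. A pseudocount of 0.5 gave 0.17 within pairs, where 2 gave 0.13. The cause of these changes was not tested. Genes with few counts, such as Oas2 with 269 and Oasl1 with 275 in all, have wide errors.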
